A study of Mus musculus with 15 samples.

Results

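Sox9, Spp1, Krt7, Krt19, Epcam, Cd24a and Cftr are genes used to recognise the cells that line bile ducts (cholangiocytes) and the hepatocytes next to the portal vein that share some of their genes. These 7 genes were taken by symbol from the 55984 genes with deposited counts, and all 7 were present. The counts came from bulk RNA sequencing of hepatocytes of wild-type, adult, male C57BL/6JJcl mice. Live cells were stained with the DNA dye Hoechst and sorted by DNA content into diploid (2n-whole) and tetraploid (4n-whole) populations. Tetraploid cells were also split by the height of the Hoechst signal into 4n-top, enriched for mononucleated cells, and 4n-bottom, enriched for binucleated cells. There were 4 libraries each of 2n-whole, 4n-whole and 4n-bottom and 3 of 4n-top, 15 in all, and libraries with the same number came from the same mouse, with 4n-top represented by mice 2, 3 and 4. The study left out the 4n-top sample of mouse 1 because its RNA quality was poor.

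Several features of the sort limit what these populations stand for. Small non-parenchymal cells, doublets and dead cells had been removed by gating, but 4n-top, which was sorted once, remained a mixture of mononucleated and binucleated cells. The study proposes that the orientation of their nuclei in the flow places some binucleated cells in 4n-top. By its counts, 4n-top was less pure for mononucleated cells than 4n-bottom was for binucleated cells. After sorting, diploid cells were pelleted faster and for longer than tetraploid cells, so ploidy and this handling cannot be told apart. In these bulk libraries, fewer cells of a type and less RNA per cell cannot be told apart either. Total counts per library ranged from 22049498 to 42096421. At these depths, 3 counts, taken as the lowest detectable level, corresponded to 0.0713 to 0.136 CPM (counts scaled to a common library total), a limit that covers counting error only. Hepatocyte genes were abundant, and a list of 11 of them, such as Alb and Apob, summed to between 88860 and 115100 CPM in every library.

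Bile ducts and hepatocytes arise from the same embryonic progenitor. Notch signalling, set off by the ligand Jag1 from the portal mesenchyme, directs progenitors next to the portal vein to the biliary fate through the targets Hes1 and Sox9. Sox9 encodes a transcription factor that stays high in duct cells and, at a lower level, in some portal hepatocytes. Spp1 encodes osteopontin, a secreted phosphoprotein that binds integrins and CD44 and that macrophages also make. Krt7 and Krt19 encode the keratins typical of duct epithelium, Epcam and Cd24a encode surface proteins used to sort duct and progenitor cells, and Cftr encodes the chloride channel through which duct cells secrete fluid.

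The levels of the 7 genes fell into separate tiers. Scaled by exon length and library total (TPM, from the GENCODE M39 annotation), Sox9 had a mean level of 15.8 TPM over the 15 libraries and Spp1 had 3.41 TPM. The other 5 genes were far lower, at 0.362 TPM for Krt19, 0.139 TPM for Epcam, 0.0982 TPM for Cd24a, 0.0437 TPM for Cftr and 0.0343 TPM for Krt7. Thus the transcription factor and the secreted protein were present in every library, whereas the structural, surface and channel genes of duct cells were at or near the detection limit in most of them. In 2n-whole alone, Sox9 stood at 16.9 ± 5.396 TPM and Spp1 at 7.60 ± 1.77 TPM (SD, n = 4), and Krt19 followed at 0.919 ± 0.722 TPM. The next genes in that order, Cd24a at 0.368 ± 0.394 TPM and Epcam at 0.340 ± 0.291 TPM, differed by less than their spread.

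**Figure D1:**
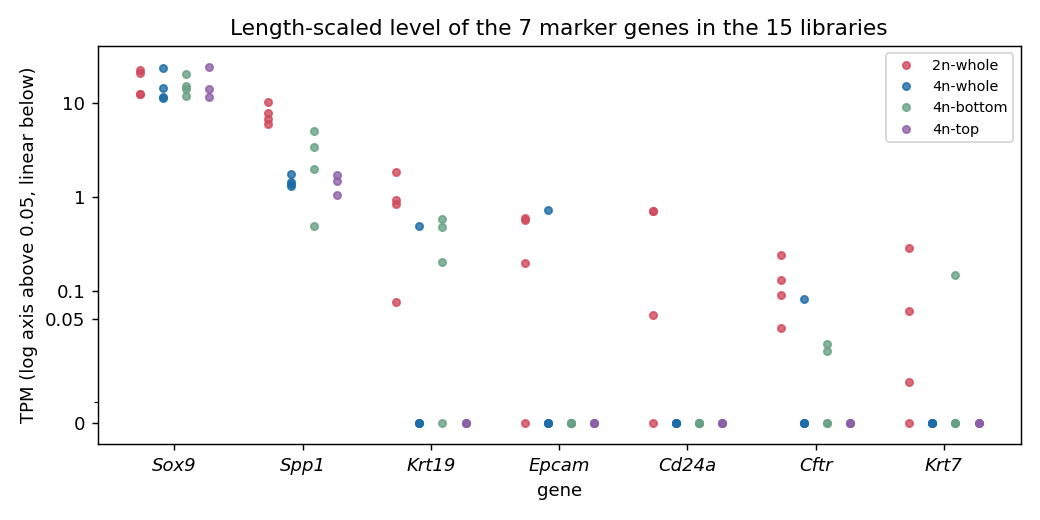
Length-scaled level (TPM, logarithmic above 0.05 and linear below) of the 7 genes, with 1 point for each of the 15 libraries, coloured by population. Sox9 lies above 10 TPM in every library and Spp1 is highest in 2n-whole, whereas the other 5 genes are at 0 in all 3 4n-top libraries.

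Spp1 differed most clearly between diploid and tetraploid hepatocytes. It lies on chromosome 5 (104582165 to 104589235, plus strand, GRCm39). In 2n-whole, the 4 mice had 8.29, 7.41, 7.54 and 11.9 CPM, from 240 to 466 counts. In 4n-whole, the same mice had 1.47, 1.36, 1.27 and 1.64 CPM. The diploid libraries were all above the tetraploid ones, and the 4n-whole values were the tightest of any population. In 4n-bottom, mice 1 to 4 had 3.85, 1.91, 0.477 and 5.02 CPM. In 4n-top, mice 2, 3 and 4 had 1.57, 1.41 and 1.04 CPM. The lowest diploid library therefore stood above the highest of the 11 tetraploid libraries, while 4n-bottom varied more from mouse to mouse than any other tetraploid population.

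The order of the Spp1 means was 2n-whole (8.79 ± 2.13 CPM, n = 4), 4n-bottom (2.81 ± 2.02 CPM, n = 4), 4n-whole (1.44 ± 0.161 CPM, n = 4) and 4n-top (1.34 ± 0.271 CPM, n = 3). The gap of 2n-whole to the next population exceeded the spread of either, whereas the ranges of the 3 tetraploid populations overlapped. The ratio of mean CPM in 2n-whole to that in 4n-whole was 6.13, and within mice 1 to 4 it was 5.64, 5.44, 5.95 and 7.26. All 4 mice thus showed the decrease at a similar size. Against 4n-bottom the ratio of means was 3.12, with 2.15, 3.88, 15.8 and 2.37 within mice 1 to 4. Against 4n-top it was 6.57, with 4.72, 5.36 and 11.5 within mice 2, 3 and 4. Spp1 was thus lower than in 2n-whole in every tetraploid library of the same mouse, 11 of 11.

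Sox9, the other gene of the 7 with substantial counts, lies on chromosome 11 (112673009 to 112678586, plus strand), and BC006965 on the opposite strand had 0 to 29 counts in a library. In 2n-whole, mice 1 to 4 had 35.2, 33.8, 22.9 and 21.6 CPM, from 729 to 1480 counts. In 4n-whole they had 21.3, 33.9, 16.2 and 15.9 CPM. The ranges overlapped because mouse 2 had about the same raw CPM in both. In 4n-bottom, mice 1 to 4 had 23.3, 29.2, 21.1 and 17.3 CPM, and in 4n-top, mice 2, 3 and 4 had 31.9, 16.37 and 20.6 CPM. Mouse 2 had the highest Sox9 level in every tetraploid population, and the spread between mice within a population was as wide as the distance between populations. The means were 28.4 ± 7.10 CPM in 2n-whole (n = 4), 23.0 ± 8.04 CPM in 4n-top (n = 3), 22.7 ± 4.96 CPM in 4n-bottom (n = 4) and 21.8 ± 8.44 CPM in 4n-whole (n = 4). No neighbours in this order differed beyond their spread, which is between mice and does not use the pairing. Within mice, Sox9 CPM was lower than in 2n-whole in every tetraploid library except 4n-whole of mouse 2.

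**Figure D2:**
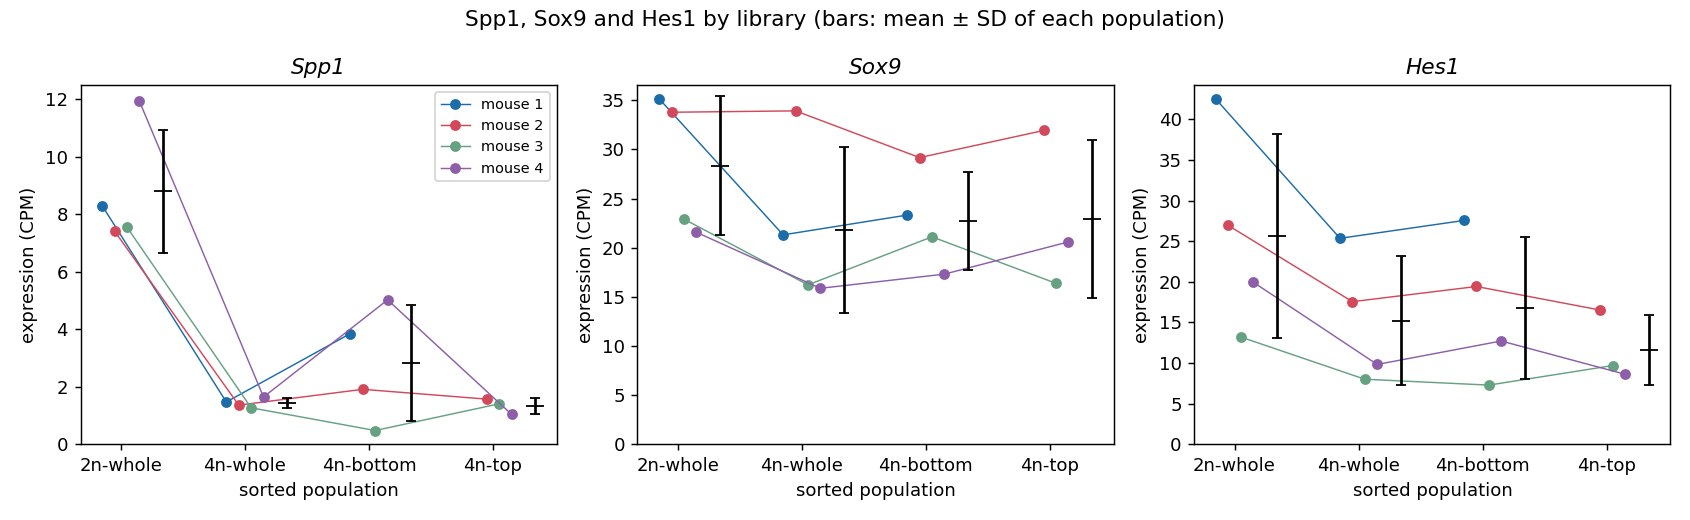
Expression (CPM) of Spp1, Sox9 and the Notch target Hes1 in each library, with points of the same mouse joined by a line and black bars giving the mean ± SD of each population. Spp1 in all 4 2n-whole libraries (7.41 to 11.9 CPM) lies above every tetraploid library, whereas for Sox9 and Hes1 the populations overlap and the mice keep much of their order.

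The sequences before the starts of Sox9 and Spp1 are shown because these were the members that met the thresholds for a difference in the tests given below. Each is the plus strand of GRCm39 over the 250 bases before the start of the transcript marked canonical in the annotation, at chr11:112672759-112673008 for Sox9 and chr5:104581915-104582164 for Spp1. Capitals mark the letters CCAAT or, on the other strand, ATTGG.
Sox9: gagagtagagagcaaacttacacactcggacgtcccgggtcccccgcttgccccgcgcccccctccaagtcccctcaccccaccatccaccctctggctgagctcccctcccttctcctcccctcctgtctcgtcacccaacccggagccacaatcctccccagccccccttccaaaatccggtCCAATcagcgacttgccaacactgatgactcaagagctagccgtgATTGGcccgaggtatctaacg
Spp1: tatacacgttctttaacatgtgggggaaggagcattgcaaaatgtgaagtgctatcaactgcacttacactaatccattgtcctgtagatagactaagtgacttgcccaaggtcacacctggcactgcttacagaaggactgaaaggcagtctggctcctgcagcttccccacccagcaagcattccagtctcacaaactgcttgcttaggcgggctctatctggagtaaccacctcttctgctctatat
Sox9 has these letters starting 66 and 21 bases before its start, and Spp1 has none, whereas 36.5% of 21757 windows of the same length before protein-coding genes hold a match on either strand. The core letters bound by RBPJ, the DNA-binding partner of Notch (TGGGAA or TTCCCA), occur in 22.7% of all windows and in neither of these. The TATA box letters (TATAAA or TTTATA, 11.9% of windows) were also in neither. A match is a description of the letters and not a binding site, and no match concerns these windows only.

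The 4 comparisons were tested with edgeR's quasi-likelihood F test over 17488 genes, with the mouse as a block. A gene was called when its adjusted p was below 0.05 and its log2 fold change beyond 0.5 in either direction, the thresholds of the study. The comparisons of each tetraploid population with 2n-whole share the diploid libraries and are not independent of each other. Of the 7 genes, 5 passed the filter on low counts, which asked for 0.271 CPM in a minimum number of libraries. Cftr passed only through 2n-whole, where 3 libraries reached that level and no tetraploid library did, and Krt7 and Cd24a did not pass.

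The first question was whether diploid and tetraploid hepatocytes differed in these genes. In 4n-whole against 2n-whole, 2 of the 5 tested genes were called lower and none higher, beside 1.73% of all tested genes called lower. Spp1 fell by 2.81 on the log2 scale (SE 0.38, adjusted p = 2.0e-05, edgeR). Sox9 fell by 0.62 (SE 0.12, adjusted p = 0.0023, edgeR), and after TMM scaling it was lower in 4n-whole in 4 of 4 mice. The duct genes Krt19 (adjusted p = 0.240), Epcam (adjusted p = 0.427) and Cftr (adjusted p = 0.172) were not called by edgeR.

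The calls of the 2 genes were not equally firm. Spp1 was called in this comparison under all 12 alternative settings, with a log2 fold change between -2.87 and -2.60. The call of Sox9 was lost without the mouse as a block (log2 fold change -0.60, adjusted p = 0.347, edgeR) and when libraries were scaled by their totals in place of TMM (-0.41, adjusted p = 0.0362, edgeR, short of the fold limit). Scaling by totals moved the median log2 fold change of all tested genes from -0.01 to 0.20 in this comparison, and the CPM given above use totals. Krt19 was called when mouse 3, the source of the only 4n-whole library with Krt19 counts, was left out (adjusted p = 0.0126, edgeR).

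In 4n-bottom against 2n-whole, 1 of the 5 tested genes was called lower, beside 0.229% of all tested genes. Spp1 fell by 1.90 on the log2 scale (SE 0.36, adjusted p = 0.0072, edgeR), and without the mouse as a block the call was lost (adjusted p = 0.842). For Sox9 the log2 fold change was -0.43 (SE 0.12, adjusted p = 0.143, edgeR). In 4n-top against 2n-whole, again 1 of 5 was called lower, beside 0.52% of all tested genes. Spp1 fell by 2.73 there (SE 0.43, adjusted p = 0.00027, edgeR), with adjusted p = 0.0661 without the block. For Sox9 it was -0.44 (SE 0.14, adjusted p = 0.138, edgeR), so the estimates for Sox9 were below 0 against all 3 tetraploid populations but met the thresholds in 4n-whole only, and whether the 3 differ from each other in Sox9 was tested for 4n-top and 4n-bottom alone.

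The second question was whether the 2 tetraploid fractions, enriched for mononucleated or binucleated cells, differed in these genes. In 4n-top against 4n-bottom, 0 of the 5 tested genes were called by edgeR, beside 0.0114% of all tested genes in either direction. DESeq2 called 0 of them after ComBat-seq and, with the mouse as a block, 1 of the 7, Krt7, which rests on 14 counts in a single 4n-bottom library. Over all genes, DESeq2 called 18 after ComBat-seq and 3003 with the block, where edgeR called 2. At an unadjusted p below 0.05, edgeR gave 1 of the 5, Krt19 (adjusted p = 1.00), which was at 0 in all 4n-top libraries and at 16, 0, 4 and 12 counts in 4n-bottom. The log2 fold change of Spp1 was -0.84 (SE 0.43, adjusted p = 1.00, edgeR). Within mice it was lower in 4n-top in mice 2 and 4, with top to bottom ratios of CPM of 0.821 and 0.207, and higher in mouse 3, with a ratio of 2.95. The direction thus depended on the mouse. The log2 fold change of Sox9 was -0.01 with an SE of 0.13 (edgeR).

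**Figure D3:**
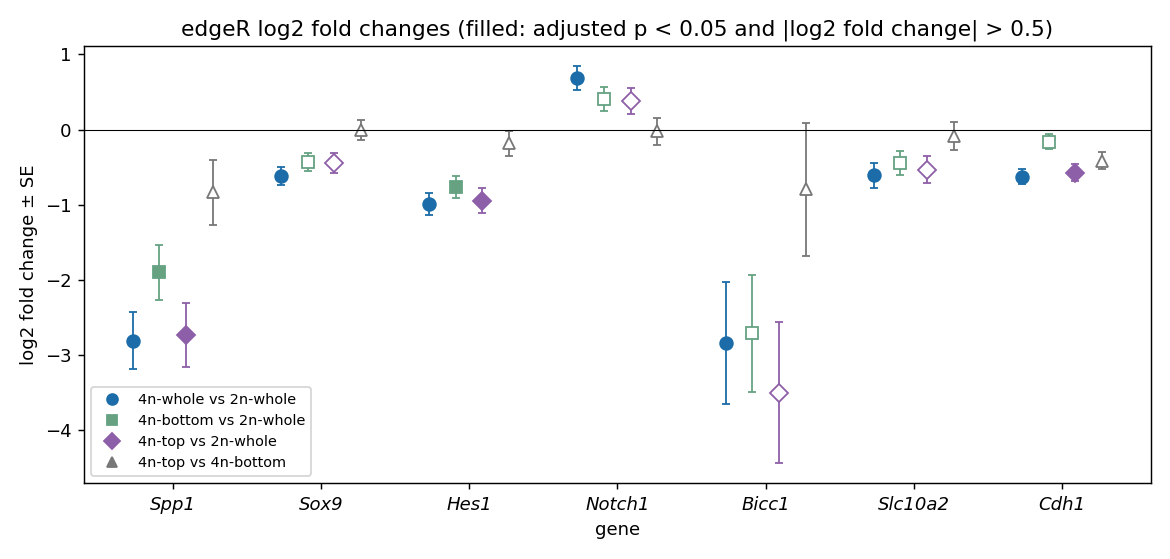
Log2 fold changes (± SE, edgeR) of Spp1, Sox9 and 5 genes of related lists in the 4 comparisons, with filled symbols for adjusted p below 0.05 and a log2 fold change beyond 0.5. Spp1 and Hes1 are filled against 2n-whole in all 3 tetraploid populations, Notch1 is the gene above 0 against 2n-whole, and no symbol of 4n-top vs 4n-bottom is filled.

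The remaining duct genes were detected mainly in the diploid libraries. Krt19 (chromosome 11, 100031636 to 100039491, minus strand) had 54, 22, 2 and 28 counts in 2n-whole mice 1 to 4. In 4n-whole it had 12 counts in mouse 3 and 0 in the others. Its 4n-bottom libraries had 16, 0, 4 and 12 counts. Krt19 was therefore the low gene seen most often outside 2n-whole, with mean levels of 0.667 CPM in 2n-whole, 0.0792 CPM in 4n-whole, below the level of 3 counts per library, and 0.220 CPM in 4n-bottom. Against 4n-top, where all 3 libraries were at 0, 2n-whole was at least 6.65-fold higher, taking 3 counts in each of those libraries as the limit.

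Its partner keratin Krt7 (chromosome 15, 101308924 to 101328194, plus strand) had 32, 0, 2 and 7 counts in 2n-whole mice 1 to 4. Outside 2n-whole it had 14 counts in the 4n-bottom library of mouse 4 and 0 elsewhere. The keratin pair shared its highest library, 2n-whole of mouse 1.

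The surface genes behaved in another way. Epcam (chromosome 17, 87943407 to 87958557, plus strand) had 8, 0, 22 and 24 counts in 2n-whole mice 1 to 4 and 18 counts in the 4n-whole library of mouse 4, with 0 in the other 10 tetraploid libraries. Cd24a (chromosome 10, 43454280 to 43460264, plus strand) had 0, 2, 26 and 30 counts in 2n-whole and 0 in all 11 tetraploid libraries. Both were highest in mice 3 and 4 and low or absent in mouse 1, the mouse with the most keratin counts. Mean Cd24a in 2n-whole was at least 4.11-fold higher than in 4n-whole at the limit of 3 counts per library, although 1 diploid library was itself at 0 and the groups overlapped. Mtres1, which overlaps Cd24a on the opposite strand, had 237 to 637 counts in every library.

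Cftr (chromosome 6, 18170686 to 18322767, plus strand) was, like Krt19, above 0 in all 4 diploid libraries, with 16, 5, 10 and 30 counts. In 4n-whole it had 6 counts in mouse 4, in 4n-bottom it had 4 counts each in mice 1 and 4, and in 4n-top it had 0. Its mean level was 0.400 CPM in 2n-whole, 0.0524 CPM in 4n-whole and 0.0535 CPM in 4n-bottom, the latter pair below the level of 3 counts per library. Each tetraploid value lay below the diploid value of the same mouse. The differences of these 5 genes rest on few counts and their size is uncertain, and the sources used here do not say whether both mates of a read pair were counted. Even numbers made up 74.2% to 81.4% of the counts from 1 to 10 in each library, so that 3 counts may stand for fewer than 3 fragments.

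Summed over the 5 low genes, 2n-whole libraries of mice 1 to 4 held 110, 29, 62 and 119 counts. The sums were 0, 0, 12 and 24 in 4n-whole, 20, 0, 4 and 30 in 4n-bottom and 0 in each 4n-top library. Between 3 and 5 of the genes were above 0 in each diploid library and at most 3 in a tetraploid one. As CPM, the sum was 2.10 ± 0.979 in 2n-whole (n = 4), with values from 0.798 to 3.05, and it reached 0.839 in 4n-whole and 0.793 in 4n-bottom. The 2n-whole library of mouse 2 thus overlapped with the highest tetraploid libraries.

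**Figure D4:**
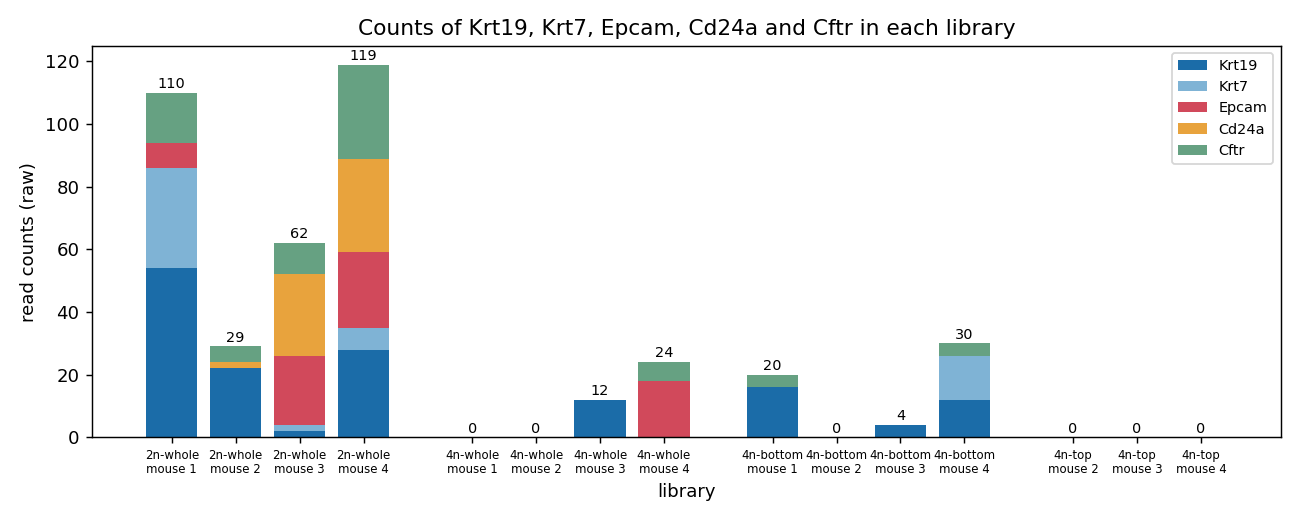
Read counts of Krt19, Krt7, Epcam, Cd24a and Cftr, stacked for each of the 15 libraries, with the sum above each bar. The 4 2n-whole libraries hold 29 to 119 counts in different mixtures of the genes, the 4n-whole and 4n-bottom libraries 0 to 30, and the 4n-top libraries 0.

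Further markers of duct cells also covered a wide range of levels. Of 18 other cholangiocyte genes, 9 were tested. In 4n-whole against 2n-whole 2 were called lower and none higher by edgeR, beside 1.73% of all tested genes called lower. The median log2 fold change of the 9, which include genes that passed the filter only through 2n-whole, was -1.47, against -0.01 for all tested genes. Bicc1, an RNA-binding protein of tubular epithelia, had 42, 50, 60 and 126 counts in 2n-whole mice 1 to 4 and 12, 8, 11 and 2 in 4n-whole. It fell by 2.84 on the log2 scale (SE 0.81, adjusted p = 0.0368, edgeR). St14, the membrane protease matriptase, had 45, 34, 20 and 27 counts in 2n-whole and 2, 0, 0 and 6 in 4n-whole. Its log2 fold change was -5.05 (SE 1.49, adjusted p = 0.0454, edgeR), but St14 passed the filter on low counts only through 2n-whole and so had to differ. The call of St14 was lost when any 1 mouse was left out (adjusted p from 0.0872 to 0.203, edgeR), and that of Bicc1 when mouse 2, 3 or 4 was (adjusted p = 0.0523, 0.0586 and 0.339).

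In 4n-whole against 2n-whole, 8 of the 9 tested genes were below 0 and 1 was above. Of the 9, 5 had an unadjusted p below 0.05 (edgeR), beside 3570 of all 17488 tested genes. The fibrocystin gene Pkhd1 had 23.1 CPM in 2n-whole and 20.2 CPM over the tetraploid libraries. It was not called, but its unadjusted p was below 0.05 against 2n-whole in each tetraploid population (edgeR). Cldn3 and Mmp7 were at 0 in all 15 libraries. The summed level of the 18 genes, which Sorbs2 dominates, ranged from 202 to 216 CPM in 2n-whole and from 183 to 224 CPM in the tetraploid libraries. In 4n-top against 4n-bottom 0 of the 9 were called by edgeR, with 0 at an unadjusted p below 0.05. DESeq2 with the mouse as a block called 1, beside 3003 over all genes.

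Among the 18 genes of the Notch pathway and biliary fate, 15 were tested, 2 were called lower in 4n-whole and 1 was called higher. Of all tested genes, 1.73% were called lower and 1.74% higher. Hes1, the transcriptional repressor induced by Notch, had 42.5, 26.9, 13.2 and 20.0 CPM in 2n-whole mice 1 to 4 and 25.4, 17.5, 8.00 and 9.82 CPM in 4n-whole. The groups overlapped, but the decrease was present within each mouse. Hes1 fell by 0.99 on the log2 scale in 4n-whole (SE 0.15, adjusted p = 8.0e-05), by 0.76 in 4n-bottom (adjusted p = 0.0072) and by 0.94 in 4n-top (adjusted p = 0.0012, edgeR for all). Without the mouse as a block none of these calls held (adjusted p = 0.376, 0.999 and 0.501), and that of 4n-top was lost without mouse 4 (adjusted p = 0.116).

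The receptor gene Notch1 went the other way. It had 8.17 to 13.7 CPM in 2n-whole and 17.6 to 19.7 CPM in 4n-whole. It rose by 0.69 on the log2 scale (SE 0.16, adjusted p = 0.0106, edgeR), a call lost without mouse 4 (adjusted p = 0.0739) and without the block (adjusted p = 0.187). Sox4, a transcription factor related to Sox9, had 49, 0, 16 and 50 counts in 2n-whole and 0 in 4n-whole, at least 7.39-fold higher in 2n-whole at the limit of 3 counts per library (adjusted p = 0.0397, edgeR). Sox4 also passed the filter only through 3 of the 2n-whole libraries and so had to differ. The Sox4 call was lost without mouse 3 or 4 (adjusted p = 0.0677 and 0.371) and with DESeq2 (adjusted p = 0.407). The Notch feedback gene Nrarp was at 0 in all 15 libraries.

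Hes1 was also the gene most like Spp1. Over the 15 libraries, with the mouse effect removed from log2 CPM, Pearson's r with Spp1 was 0.965 for Hes1, 0.955 for Prg4 and 0.949 for Gmfb. The differences between populations were kept in these values, so genes that share them also correlate, and r is given as a description. For Sox9 the nearest genes were Pak1 (r = 0.953), Arhgap10 (r = 0.928) and 1810064F22Rik (r = 0.923), and Spp1 came in at r = 0.693. Between Cftr and Spp1 r was 0.901, with Cftr at 0 in 8 of the 11 tetraploid libraries. Krt19 and Epcam, at r = 0.202, were the least alike of the pairs among tested members.

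The other lists tied to these markers gave the following values. Of 8 tested genes for ductal secretion, 1 was called lower in 4n-whole and none higher, beside 1.73% of all tested genes called lower. It was the bile acid transporter Slc10a2, with 16.3 CPM in 2n-whole and 12.1 in 4n-whole (log2 fold change -0.61, SE 0.16, adjusted p = 0.0284, edgeR), a call lost without mouse 2 or 4 (adjusted p = 0.199 and 0.271). The estimates split into 4 above and 4 below 0. The summed level of the list was 174.5 to 202.7 CPM in 2n-whole, 194.3 to 258.8 in 4n-whole and 175.4 to 236.3 in 4n-bottom. In 4n-top it was 208 to 249 CPM, above 2n-whole without overlap. These sums use library totals, which moved the median log2 fold change of all tested genes in 4n-top against 2n-whole from 0.0002 to 0.168. After TMM scaling, the 8 tested genes split there into 4 above and 4 below 0, with a median of -0.15. In 4n-whole against 2n-whole, DESeq2 called 4 genes of this list with the mouse as a block and 4 after ComBat-seq. Among them were the calcium channel Itpr3 (adjusted p = 0.0300 with the block) and the chloride cotransporter Slc12a2 (adjusted p = 0.0179 with the block). In edgeR these had adjusted p = 0.0816 and 0.0517. Over all genes in 4n-whole against 2n-whole, DESeq2 called 4606 with the block and 1160 after ComBat-seq, where edgeR called 607. Of 8 tested receptors of osteopontin, 0 were called by edgeR in 4n-whole, with 2 at an unadjusted p below 0.05, and DESeq2 called 0 with the mouse as a block and 1 after ComBat-seq. The nearest was Itgav, the alpha-V integrin subunit, at -0.40 on the log2 scale (adjusted p = 0.0249, edgeR), short of the fold limit. Itgb3, the other receptor at an unadjusted p below 0.05 (edgeR), passed the filter on low counts only through 2n-whole and so had to differ. The summed level of the osteopontin receptors was 303.7 to 321 CPM in 2n-whole and 362.6 to 376.1 in 4n-top, higher in 4n-top without overlap. In 4n-whole (297.5 to 377.1 CPM) and 4n-bottom (279.3 to 392.4 CPM) it overlapped with 2n-whole. These sums also use library totals. After TMM scaling, 6 of the 8 tested receptors were below 0 and 2 above in 4n-top against 2n-whole. Their median log2 fold change there was -0.18. Of 9 tested keratin and adhesion genes, 1 was called lower in 4n-whole and none higher, beside 1.73% of all tested genes called lower. This was Cdh1, which encodes E-cadherin (log2 fold change -0.63, SE 0.10, adjusted p = 0.00025, edgeR), a call lost with library totals in place of TMM (log2 fold change -0.42, short of the fold limit). It was also called lower in 4n-top against 2n-whole (-0.58, adjusted p = 0.0042, edgeR), which was lost without mouse 4 (adjusted p = 0.381), without the block (adjusted p = 0.618) and with library totals (-0.41). Krt23 was called lower in 4n-top against 2n-whole (log2 fold change -1.94, adjusted p = 0.0352, edgeR), but the call was lost when any 1 mouse was left out (adjusted p from 0.0567 to 0.168) and without the block (adjusted p = 0.527). Cdh1 and Krt23 were the 2 of 9 tested genes called lower there, beside 0.52% of all tested genes. Of 4 tested genes of fetal hepatocytes, such as Afp, 0 were called by edgeR in 4n-whole, with 0 at an unadjusted p below 0.05, and DESeq2 with the mouse as a block called 2 of the list. Without the mouse as a block edgeR called none of the genes of these lists named here, with adjusted p = 0.149 for Bicc1, 0.323 for St14, 0.158 for Sox4, 0.250 for Slc10a2 and 0.385 for Cdh1 in 4n-whole.

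Some portal hepatocyte genes were also called. Of 14 tested, 5 were called lower in 4n-whole against 2n-whole and none higher by edgeR, beside 1.73% of all tested genes called lower, with a median log2 fold change of -0.30. These were Aldh1b1 (-1.16), Mup20 (-1.06), Ctsc (-0.88), Cyp2f2 (-0.73) and Hsd17b13 (-0.61). Without the mouse as a block 3 calls were made, and those of Cyp2f2 (adjusted p = 0.0982) and Hsd17b13 (adjusted p = 0.0983) were lost. The call of Hsd17b13 was also lost with library totals in place of TMM (log2 fold change -0.41, short of the fold limit). The summed level of the 14 genes was 21210 to 24330 CPM in 2n-whole and 19270 to 25550 CPM in 4n-whole, ranges that overlapped. In 4n-whole against 2n-whole, 13 of the 14 estimates were below 0. Of the 14, 11 had an unadjusted p below 0.05 (edgeR), beside 3570 of all 17488 tested genes. Against 2n-whole, edgeR also called Aldh1b1, Ctsc and Mup20 lower in 4n-top and Aldh1b1 in 4n-bottom. These were 3 and 1 of the 14, beside 0.52% and 0.229% of all tested genes, with 0 called without the block. In 4n-top against 4n-bottom 0 of the 14 were called by edgeR, although 13 of the estimates were below 0 and 6 had an unadjusted p below 0.05. DESeq2 called 2 of them with the mouse as a block and 1 after ComBat-seq, beside 3003 and 18 over all genes.

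Markers of other cells were measured beside these genes. The summed level of 11 Kupffer cell and macrophage genes was 0.736 to 8.91 CPM in 2n-whole, 1.42 to 3.99 in 4n-whole, 0.763 to 4.53 in 4n-bottom and 0.625 to 3.11 in 4n-top, and in 4n-whole against 2n-whole 0 of the 8 tested were called by edgeR, with 2 at an unadjusted p below 0.05 and 1 called by DESeq2. The median log2 fold change of the 8 was -1.84 there and -3.32 in 4n-top against 2n-whole, where 7 of 8 were below 0, 4 had an unadjusted p below 0.05, edgeR called 0 and DESeq2 with the mouse as a block called 1. Among the 8, Vsig4 passed the filter on low counts only through 2n-whole and so had to differ. The summed level of 10 endothelial genes was 16.1 to 28.8 CPM in 2n-whole, 7.79 to 41.8 in 4n-whole, 6.39 to 30.3 in 4n-bottom and 7.35 to 23.6 in 4n-top. In 4n-whole, 1 of the 10 was called lower, beside 1.73% of all tested genes. It was Ptprb (log2 fold change -1.03, adjusted p = 0.0387, edgeR), a call lost without mouse 4 (adjusted p = 0.400) and without the block (adjusted p = 0.783). The median log2 fold change of the 10 was -0.58 in 4n-whole and -1.21 in 4n-top against 2n-whole, where 9 of 10 were below 0, 4 had an unadjusted p below 0.05, edgeR called 0 and DESeq2 with the mouse as a block called 3. For 8 mesothelial genes the sum was 0.248 to 2.04 CPM in 2n-whole and at most 1.42 in a tetraploid library. The neutrophil genes S100a8 and S100a9 and the mesothelial gene Upk3b were at 0 in all 15 libraries. The summed level of 10 lymphocyte and neutrophil genes was 0.563 to 1.05 CPM in 2n-whole, 0 to 0.680 in 4n-whole, 0.211 to 0.461 in 4n-bottom and 0 to 0.156 in 4n-top, so that 2n-whole was above 4n-bottom and 4n-top without overlap. The summed levels of the Kupffer, endothelial, mesothelial, stellate, hepatocyte and erythroid lists overlapped between 2n-whole and the tetraploid populations. The part of these markers of other cells in the differences of Spp1, Sox9 and the low duct genes was not tested. Stellate cell genes summed to 3.49 to 5.78 CPM in 2n-whole and 1.88 to 4.72 CPM in the tetraploid libraries, with 0 of 5 tested genes called by edgeR in 4n-whole, 0 at an unadjusted p below 0.05 and 1 called by DESeq2 with the mouse as a block. In 4n-whole against 2n-whole, 1 of 11 tested hepatocyte genes, Serpina1c, was called lower, beside 1.73% of all tested genes. Its log2 fold change was -0.83 (adjusted p = 0.00054, edgeR), and the call was lost without the block (adjusted p = 0.0983). The lymphocyte and neutrophil, mesothelial and erythroid lists each had 1 tested gene, and edgeR called 0 of them, with 1 at an unadjusted p below 0.05 (Muc16, a mesothelial gene), while DESeq2 with the mouse as a block called 2, 1 and 1 genes of these lists. Over all genes, DESeq2 with the block called 4606 in 4n-whole and 4433 in 4n-top against 2n-whole, where edgeR called 607 and 168.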

How the data were processed

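The authors sequenced stranded libraries of sorted hepatocytes, aligned the reads to GRCm39 (STAR 2.7.11a per the labels) and counted them per gene with featureCounts. The values they deposited are unnormalized counts per gene symbol (55984 symbols), before the ComBat-seq adjustment for mouse described in the study. The strand setting and the treatment of read pairs are not given in the sources used here, so an antisense partner could add counts to a gene.

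Gene positions, exon lengths for TPM (55865 symbols) and upstream sequences were taken from GENCODE M39 on GRCm39. CPM are counts divided by library totals. Differences were tested with edgeR 4.0.16 in R 4.3.3 (TMM, low-count filter at its defaults of 10 counts per library and 15 in total, population plus mouse, quasi-likelihood F test, Benjamini-Hochberg adjustment over 17488 genes), and the code was tested on simulated data. The subject numbers in the labels mark individual mice. After the population means were removed, 21 pairs of libraries of the same mouse correlated at a mean r of 0.158 (0.0845 to 0.227), and 63 pairs of different mice at -0.0526.

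The 7 genes and the 14 other lists (165 of 167 genes in all were present) were chosen with earlier results of these data known. The genes named are the 7 members, up to 3 genes of each list with the smallest p in 4n-whole against 2n-whole, genes called there or between 4n-top and 4n-bottom, and the 3 genes most correlated with each tested member by log2 CPM (prior count 2, mouse removed with limma 3.58.1). Pkhd1, Krt23 in 4n-top and genes at 0 were named after their values were seen, and some genes of the lists are not reported here. Alternatives were no block, DESeq2 1.42.0 with the block, ComBat-seq (sva 3.50.0) then DESeq2, DESeq2 size factors, no filter, only the compared populations, no fold limit and leaving out each mouse. Halved counts and scaling by library totals were added after seeing the data.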

Additional observations from a re-analysis of the deposited data

Results flagged for a closer look

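In 4 of 17 groups of 4 libraries tested for a single extreme value among the 7 genes, 1 library lay beyond Dixon's critical value for 4 samples. Each was the only library of its population above 0. Krt7 had 14 counts (0.370 CPM) in the 4n-bottom library of mouse 4. Krt19 had 12 counts (0.317 CPM) in the 4n-whole library of mouse 3. Epcam had 18 counts (0.629 CPM) and Cftr 6 counts (0.210 CPM) in the 4n-whole library of mouse 4, with 0 in the other 3 libraries. Chance alone flags about 1 in 20 such groups, and groups of counts at or near 0 do not meet the assumptions of the criterion.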

How the results depend on the processing

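Of the 7 genes, the number called in 4n-whole against 2n-whole was 2, 1 without the replicate block and 1 with library totals in place of TMM (Spp1 in both), 3 with DESeq2 and the block (Krt7, Sox9 and Spp1, with Krt7 at adjusted p = 4.1e-11 from 41 counts in 2n-whole and 0 in 4n-whole), and 2 to 3 when each mouse was left out. In 4n-bottom against 2n-whole it was 1, 0 without the block and 1 to 1 without each mouse. In 4n-top against 2n-whole it was 1, 0 without the block, 4 with DESeq2 and the block (Cftr, Krt19, Krt7 and Spp1), 3 after ComBat-seq and DESeq2 (Cftr, Krt19 and Spp1), 2 without the filter on low counts (Krt19 and Spp1) and 1 to 1 without each mouse. In 4n-top against 4n-bottom it was 0, 1 with DESeq2 and the block (Krt7) and 0 to 0 without each mouse. Over all genes, 607 were called in 4n-whole against 2n-whole, 40 without the block, 4606 with DESeq2 and the block, 1160 after ComBat-seq, 305 with the compared populations only, 957 without a fold limit, 1509 with library totals and 244 to 1025 without each mouse. In 4n-top against 4n-bottom 2 were called, 0 without the block, 3003 with DESeq2, 18 after ComBat-seq, 25 without the filter, 15 with the compared populations only, 1 with counts halved, 1 with library totals and 0 to 29 without each mouse. In 4n-bottom against 2n-whole 81 were called, 0 without the block, 3867 with DESeq2, 275 after ComBat-seq, 145 without the filter and 49 to 111 without each mouse. In 4n-top against 2n-whole 168 were called, 2 without the block, 4433 with DESeq2, 538 after ComBat-seq, 261 without the filter, 300 with the compared populations only, 419 with library totals and 98 to 238 without each mouse. The split into higher and lower genes moved from 305 and 302 to 1334 and 175 with library totals in 4n-whole against 2n-whole, from 41 and 40 to 93 and 27 in 4n-bottom and from 77 and 91 to 339 and 80 in 4n-top. The cause of these shifts was not tested.

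For Spp1, the log2 fold change in 4n-whole against 2n-whole stayed between -2.87 and -2.60 under the 12 alternatives, and in 4n-bottom against 2n-whole between -2.204 and -1.496. No called difference changed its direction. Without the filter, Cd24a (adjusted p = 0.287) and Krt7 (adjusted p = 0.371) entered the edgeR fit of 4n-whole against 2n-whole without being called. Depth limits Krt19, Krt7, Epcam, Cd24a and Cftr most, since a count of 0 allows up to 3 counts per library.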
